A study of Mus musculus with 69 samples.

Results

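RNASeq libraries of nephritic and young NZB/W F1 mouse kidney collected at ZT16 were compared. ZT16, or Zeitgeber time 16, falls in the dark phase, 4 h after the lights go out, on a scale that counts the hours from lights on. The members were the libraries whose time label is ZT16 and whose diagnosis label is nephritis (3 libraries) or Young (4 libraries), 7 of the 69 libraries of the series. NZB/W F1 is a hybrid mouse strain whose females develop lupus nephritis without any transgene. The young mice were 12 weeks old and untreated. The nephritic mice were 30 to 45 weeks old, untreated, and were collected after proteinuria had set in. Each library was made from polyadenylated RNA of a perfused whole kidney, so cells of every part of the kidney, and of any tissue collected with it, contributed RNA. Age and nephritis cannot be told apart here, since every nephritic mouse was older than every young mouse. In whole kidney RNA, fewer cells of a type and less RNA per cell cannot be told apart either.

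The circadian clock is a feedback loop in which the factors BMAL1 (gene Arntl), CLOCK and NPAS2 switch on the Per and Cry genes, whose proteins then block their own activators. A further loop runs through the nuclear receptors REV-ERB (Nr1d1, Nr1d2) and ROR (such as Rora), and the factors DBP, TEF and HLF carry the rhythm to enzymes and transporters of the tubule. In lupus nephritis, immune complexes lodge in the glomerulus, lymphocytes and myeloid cells enter the kidney, interferon-responsive genes are switched on, and injured tubules lose transport and oxidative enzymes while they gain repair genes.

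Total counts ranged from 26290946 to 31132025 in the young and from 31360192 to 32100273 in the nephritic libraries, and all 7 were sequenced in the same RNASeq set. Kidney markers were present throughout, with Lrp2, the endocytic receptor of the proximal tubule, at 913 to 2870 CPM (reads of a gene scaled to a common library total), and Umod, a marker of the thick ascending limb, at 2460 to 4010 CPM. The libraries stood apart in other ways that bear on the results. Genes of liver, adrenal gland and pancreas were present at high level in some of the young libraries. The 10 liver genes, a list added after the data were seen, summed to 13600, 121, 12700 and 1940 CPM in young libraries 1 to 4 and to 24.2, 11.1 and 30.5 CPM in nephritic libraries 1 to 3. The 9 adrenal cortex genes summed to 2300, 13.7, 82.8 and 2100 CPM in the young and to 11.3, 9.78 and 8.97 CPM in the nephritic libraries. Young libraries 1 and 3 therefore held the most liver RNA, young libraries 1 and 4 the most adrenal RNA, and young library 2 the least of both. The added lists of adrenal medulla (254, 0.721, 7.8 and 263 CPM in the young, 0.155 to 0.26 CPM in the nephritic libraries) and of pancreas (68.5 CPM in young library 4, 0.0367 to 0.26 CPM in the others) were also high in some young libraries, the medulla genes in young libraries 1 and 4 and the pancreas genes in young library 4 alone. Such RNA was not limited to ZT16. In the 20 young libraries of the other time points the liver sum ran from 23.6 to 14300 CPM (median 248), and in the 19 nephritic libraries from 26.2 to 3520 CPM (median 296). The part of this RNA in each result was not tested beyond the values given beside it.

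**Figure D1:**
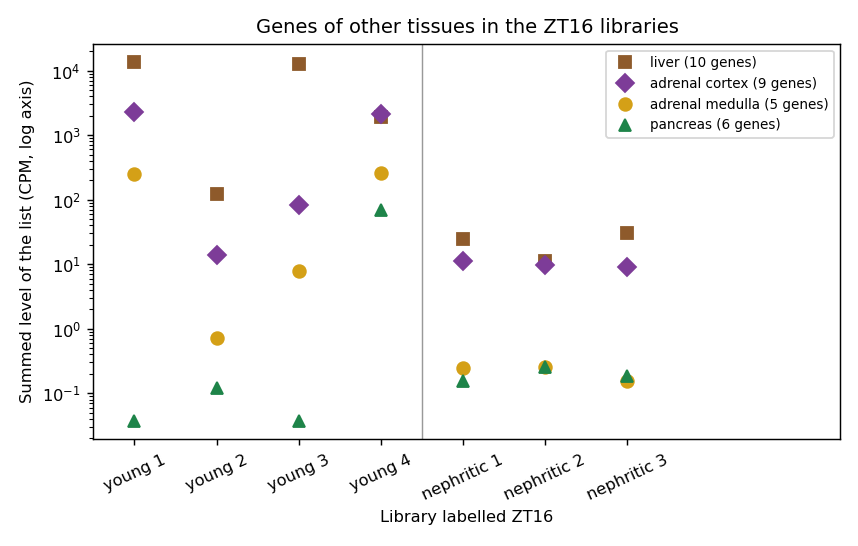
Summed level in CPM (log axis) of liver, adrenal cortex, adrenal medulla and pancreas genes in each of the 7 libraries, with 1 point for each list and library. Liver genes reached 13600 CPM in a young library and at most 30.5 CPM in a nephritic library, and young library 2 was the only young library low in liver as well as adrenal genes.

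Across the genome, 15248 genes had at least 100 counts over the 7 libraries and were tested. At an adjusted p of at most 0.05 by edgeR's quasi-likelihood test, 2135 genes (14%) were higher and 1692 (11.1%) were lower in nephritic than in young kidney, and 6199 had an unadjusted p under 0.05. The increases were larger than the decreases, with a median log2 change of 1.02 among the genes called higher and -0.49 among those called lower. A change of at least 2-fold was seen for 1081 of the genes called higher and 338 of those called lower. The 4 young and 3 nephritic values did not overlap for 2998 genes with nephritic higher (19.7%) and 2643 with nephritic lower (17.3%). The median over all tested genes was -0.0076. Young library 3 and young library 4 weighed most on these counts, which were 1280 higher and 645 lower without young library 3, and 1375 higher and 816 lower without young library 4. The lower count also fell to 992 without nephritic library 2 and to 1000 without nephritic library 3. With young libraries 2 and 3 alone, the fit without the most adrenal RNA, 1030 genes were higher and 505 lower. With young libraries 2 and 4 alone, the fit without the most liver RNA, 1135 were higher and 634 lower. Liver genes still summed to 12700 CPM in young library 3 and 1940 CPM in young library 4. Both fits also hold 2 young libraries in place of 4. Fewer libraries and less RNA of other tissues cannot be told apart in these counts or in the list counts of these fits below.

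The deepest decreases belonged to liver and adrenal genes. The 10 genes with the largest fall among called genes were Slco1b2, a bile acid carrier of hepatocytes, Cyp11b1, the last enzyme of glucocorticoid synthesis in the adrenal cortex, A1bg, Cyp2c37, Ces1c, Cyp7a1, the rate-limiting enzyme of bile acid synthesis, Cyp3a41a, Serpina3k, Cyp3a25 and Cyp2c67. Alb, which encodes serum albumin and was chosen after its values were seen, measured 9590, 92.5, 8650 and 1360 CPM in the young and 16.7, 7.48 and 22.5 CPM in the nephritic libraries. The groups did not overlap, but young library 2 lay far below the other young libraries, and the log2 change was -8.31 (SE 1.73, adjusted p = 0.0145), lost without nephritic library 2 (adjusted p = 0.0509). Slco1b2 had 3397 counts in the young and 0 in the nephritic libraries and was at least 1040-fold lower against a floor of 3 counts over the group. Cyp7a1, with 1152 counts against 0, was at least 351-fold lower. The calls of Slco1b2, Cyp7a1, Cyp2c37 and Cyp2c67 were each kept in 1 of 7 fits that left out a library (adjusted p of up to 0.0785, 0.101, 0.0822 and 0.1, without young library 3). Those of Cyp3a41a, Cyp11b1, A1bg and Cyp3a25 were kept in 2, 3, 4 and 5 of 7, and those of Ces1c and Serpina3k in 7. The Cyp2c and Cyp3a genes are near-identical copies whose reads can be split between them, so their single values are uncertain.

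To set these genes aside, a gene was taken to follow other tissue when its deviations from the time point means correlated at 0.8 or more with the summed adrenal cortex or liver genes over the 20 young libraries of the other time points, a rule added after the data were seen. It marked 291 tested genes, 66 with adrenal and 225 with liver genes. Of these, 167 were called lower at ZT16, each by at least 2-fold, and 1 was called higher, so they made up 167 of the 338 decreases of that size. The 14957 other genes gave 2134 higher (14.3%) and 1525 lower (10.2%), with 1080 and 171 changes of at least 2-fold. The rule does not catch every such gene. Tm4sf4, Gata4, F5 (coagulation factor V) and Cyp4f14 were called lower outside it, yet were highest in young libraries 1 and 3, the libraries richest in liver RNA. Their calls were kept in 2 of 7, 2 of 5, 3 of 7 and 4 of 7 fits that left out a library. F5 measured 46, 8.77, 39.3 and 12.2 CPM in the young and 4.73, 5.35 and 3.42 CPM in the nephritic libraries.

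The clock genes were the next question, since their levels give the time at which a kidney stands. A clock time was read in each library from 17 clock genes by fitting the 24 h curves that these genes follow in young libraries of the other time points. The 4 young libraries of ZT16 read 18.34, 17.88, 17.78 and 17.48 h. The 3 libraries labelled nephritic ZT16 read 21.80, 21.27 and 20.37 h, each later than all 4 young libraries. The means were 17.9 ± 0.356 h (SD, n = 4) and 21.1 ± 0.723 h (SD, n = 3), a difference of 3.28 h. The two-sided exact permutation test gave p = 0.0571, the smallest it can reach with these group sizes, and 0.171 after adjustment over the 6 tests of clock time and amplitude. Readings were not calibrated to the label, and young kidney itself read 1.48 to 2.34 h past ZT16.

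The reading also went against the order of the nephritic labels. Libraries labelled nephritic ZT20 read 17.32, 17.57 and 17.35 h (mean 17.4 ± 0.137 h, SD, n = 3), which was 3.73 h earlier than the libraries labelled nephritic ZT16 (exact permutation p = 0.1, the smallest for 3 against 3). Those labelled ZT20 thus read close to young ZT16, and those labelled ZT16 read later than the young ZT20 libraries, which lay between 18.6 and 19.58 h (difference 2.03 h, exact permutation p = 0.0571). Whether the mice or the labels differ cannot be told from these readings, so the name of the group below is that of its label. Values against young ZT20 or from the libraries labelled nephritic ZT20 are given for clock genes, genome-wide counts and some other genes and lists. Most list counts and single genes below stand without them. The strength of the clock pattern relative to the young curves was 0.83 ± 0.081 (SD, n = 3) in the nephritic and 0.772 ± 0.0623 (SD, n = 4) in the young libraries, a difference of 0.0583 (exact permutation p = 0.343).

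**Figure D2:**
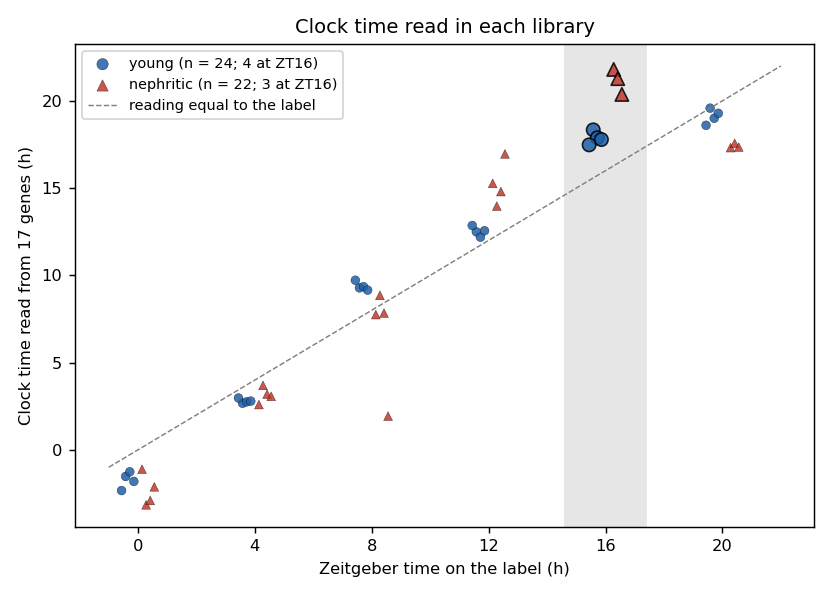
Clock time read from 17 genes (h) against the Zeitgeber time on the label (h) for the 24 young and 22 nephritic libraries of the same sequencing set, spread sideways for sight, with ZT16 shaded. The 3 libraries labelled nephritic ZT16 lie at 20.37 to 21.80 h, above the 4 young ZT16 libraries at 17.48 to 18.34 h and above the libraries labelled nephritic ZT20 at 17.32 to 17.57 h.

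Some clock gene promoters hold letters to which clock factors bind. Below are the 250 bases before the annotated start of Per3, Cry1 and Bhlhe41 (RefSeq, GRCm38.p6, the build named mm10 in the submitters' notes), each read 5' to 3' on the minus strand of its chromosome. They are shown because Per3 and Cry1 fell and Bhlhe41 rose at ZT16, and were picked from the clock genes that hold such letters. Per3 lies at chr4:151044666-151044915 and its capitals mark 2 copies of the D-box letters TTANGTAA, to which DBP, TEF and HLF bind. Cry1 lies at chr10:85185055-85185304 and Bhlhe41 at chr6:145865421-145865670, and their capitals mark the E-box CACGTG, to which CLOCK and BMAL1 bind.
Per3: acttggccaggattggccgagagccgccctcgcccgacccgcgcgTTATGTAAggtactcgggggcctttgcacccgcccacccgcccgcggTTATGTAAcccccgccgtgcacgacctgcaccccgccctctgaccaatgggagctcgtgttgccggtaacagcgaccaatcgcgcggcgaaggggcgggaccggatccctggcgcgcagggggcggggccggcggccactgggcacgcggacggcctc
Cry1: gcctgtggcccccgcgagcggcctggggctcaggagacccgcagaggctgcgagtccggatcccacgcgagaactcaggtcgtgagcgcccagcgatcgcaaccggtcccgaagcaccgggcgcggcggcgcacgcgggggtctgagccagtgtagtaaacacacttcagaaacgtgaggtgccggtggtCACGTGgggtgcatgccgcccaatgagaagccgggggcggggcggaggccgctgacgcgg
Bhlhe41: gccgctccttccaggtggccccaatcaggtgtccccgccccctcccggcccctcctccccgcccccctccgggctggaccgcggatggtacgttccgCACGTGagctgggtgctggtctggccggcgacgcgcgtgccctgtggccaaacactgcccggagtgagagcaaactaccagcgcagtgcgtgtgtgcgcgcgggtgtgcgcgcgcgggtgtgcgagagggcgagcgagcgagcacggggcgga
Of 32817 windows of this length, 6.02% held CACGTG and 2.06% held TTANGTAA on either strand. Among the 21 clock genes with a window, of 25 listed, 7 held the E-box and 1, Per3, held the D-box. A gene was counted if any of its windows held the letters, so gene counts and window shares are not like measures. The capitals are matches of letters and not measured binding.

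The clock genes split into 3 higher, 13 lower and 9 not called of 25, where 14% of all genes were higher and 11.1% lower. Npas2, the partner of BMAL1 that can replace CLOCK, measured 10.8, 10.2, 9.44 and 7.9 CPM in the young and 37.4, 21.4 and 25.1 CPM in the nephritic libraries. Its groups did not overlap and it rose by 1.55 on the log2 scale (SE 0.20, adjusted p = 0.00217). Arntl, which encodes BMAL1, measured 22.5, 23, 22.7 and 21.9 CPM in the young and 32.2, 23.9 and 34.7 CPM in the nephritic libraries. Nephritic library 2 was only slightly above the young libraries, and the increase of 0.43 (SE 0.12, adjusted p = 0.042) was kept in 1 of 7 fits that each left out a library, with an adjusted p of 0.134 without nephritic library 3. Bhlhe41 (DEC2), a repressor of the loop, rose by 1.00 (SE 0.20, adjusted p = 0.0135), with 4.13 to 5.54 CPM in the young and 8.14 to 13.1 CPM in the nephritic libraries. Rora, a ROR activator of Arntl, fell by 0.33 (SE 0.09, adjusted p = 0.0306), a call kept in 2 of 7 such fits (adjusted p = 0.0814 without young library 3).

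Among the repressors, Per2, Per3, Cry1 and Cry2 were lower and Per1 did not pass. Per3 measured 37.1, 33.6, 32.2 and 36.9 CPM in the young and 9.22, 9.15 and 11 CPM in the nephritic libraries. The groups lay far apart with little spread within each, and Per3 fell by 1.83 (SE 0.10, adjusted p = 0.000218). Per2 measured 67.2, 64.4, 61.1 and 62.1 CPM in the young and 17.9, 24.8 and 39.6 CPM in the nephritic libraries. Nephritic library 1, which had the latest clock reading, was lowest and nephritic library 3, with the earliest, was highest of the 3, and Per2 fell by 1.21 (SE 0.24, adjusted p = 0.0121). Cry1, at 29.4 to 33.3 CPM in the young and 15.8, 21.1 and 23.9 CPM in the nephritic libraries, kept the same order and fell by 0.62 (SE 0.14, adjusted p = 0.0187), a call lost without young library 3 (adjusted p = 0.0559). The clock time was itself read from clock genes, so the order of Per2 and Cry1 is no independent evidence for it. Cry2 fell by 0.73 (SE 0.11, adjusted p = 0.00469) and Nr1d2 (REV-ERB beta) by 1.15 (SE 0.14, adjusted p = 0.00139). Nr1d1 (REV-ERB alpha) was 5.48 to 7.75 CPM in the young and 23.8, 7.16 and 5.06 CPM in the nephritic libraries. Nephritic library 1 alone was high, and Nr1d1 did not pass (log2 change 0.95, SE 0.50, adjusted p = 0.192, and -0.03 without nephritic library 1). Per1, which also answers glucocorticoids, was 55.9 to 108 CPM in the young and 129, 57.2 and 43.3 CPM in the nephritic libraries and did not pass (adjusted p = 0.739).

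Clock output factors were lower as a group, with 0 higher and 6 lower of 9. Dbp measured 11.2, 13.3, 10.5 and 14.1 CPM in the young and 4.46, 5.46 and 4.09 CPM in the nephritic libraries. The groups were far apart and Dbp fell by 1.39 (SE 0.16, adjusted p = 0.0014). Tef fell by 1.07 (SE 0.17, adjusted p = 0.00518) and Por, the reductase that feeds electrons to microsomal cytochromes P450, by 1.09 (SE 0.15, adjusted p = 0.00275). Hlf, Wee1, a kinase that holds back mitosis, and Usp2, a deubiquitinase, fell by 0.79, 0.59 and 0.78. The count of 6 was 3 without young library 2, 3 or 4. The calls of Hlf, Wee1 and Usp2 were kept in 3, 2 and 2 of 7 fits that left out a library, with adjusted p-values of up to 0.07 without young library 3 for Hlf, and 0.0916 and 0.105 without nephritic library 3 for Wee1 and Usp2. The 9 clock genes that did not pass were Clock, Per1, Nr1d1, Ciart, Bhlhe40, Nfil3, Tspan4, Avpr1a and Ppp1r3c. Ppp1r3c, a glycogen-targeting subunit, was 15.5 and 13.2 CPM in young libraries 1 and 3, those rich in liver RNA, and 2.97 and 3.95 CPM in the other young libraries.

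**Figure D3:**
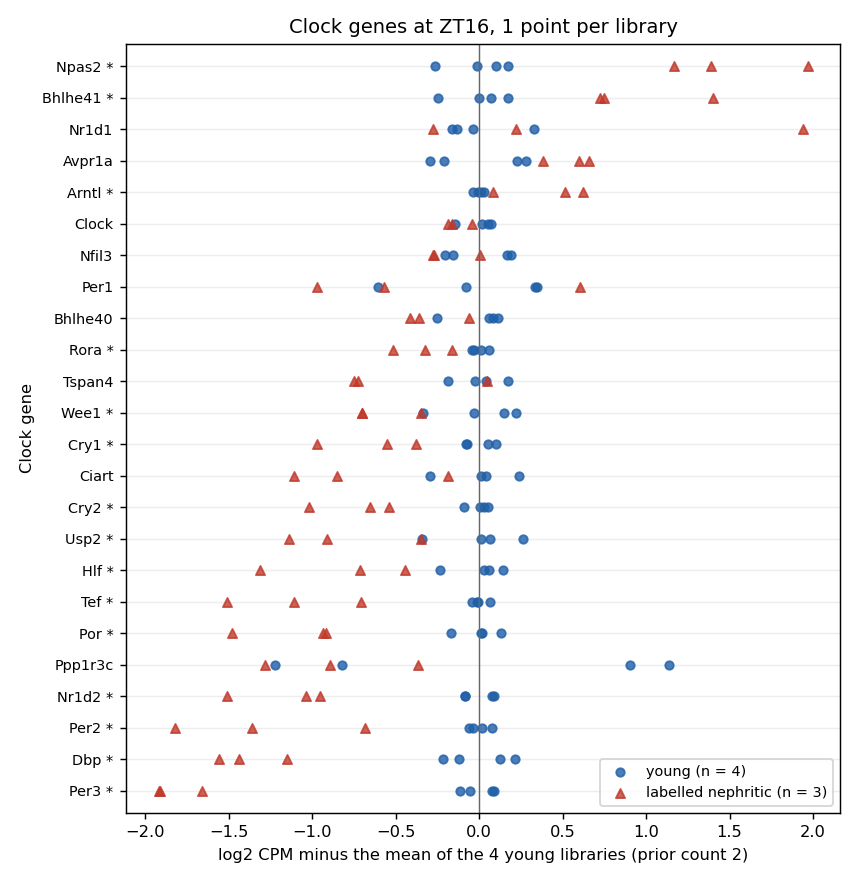
log2 CPM minus the mean of the 4 young libraries for each of 24 clock genes, with 1 point per library and an asterisk at genes past an adjusted p of 0.05. Per3, Dbp, Per2, Nr1d2, Por and Tef lie below all young points in all 3 libraries labelled nephritic ZT16, while Npas2 and Bhlhe41 lie above.

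The libraries labelled nephritic ZT16 were also set against young ZT20. Their mean reading lay between those of young ZT20 and young ZT0, and young ZT0, whose libraries read 21.67 to 22.74 h, was the closer of the 2 but was not used as a comparison group for single genes. In the fit of all 46 libraries of the set, 5 of the 25 clock genes passed against young ZT20, among them the 4 that follow. Bhlhe41 was higher by 1.13 (adjusted p = 0.000121). Clock was lower by 0.54 (adjusted p = 0.000888), Cry1 by 0.61 (adjusted p = 0.000396) and Por by 0.62 (adjusted p = 0.0206). Per3 was lower by 0.70 (adjusted p = 0.0502). The signs of Arntl and Npas2 turned, with log2 changes of -0.51 (adjusted p = 0.271) and -0.08 (adjusted p = 0.899), and Per2, Nr1d2 and Dbp came to -0.31, -0.19 and -0.15 with adjusted p-values of 0.328, 0.505 and 0.815. Both contrasts share the 3 nephritic libraries. Over the genome, the nephritic libraries against young ZT20 gave 2076 genes higher and 1490 lower. The libraries labelled nephritic ZT20 against young ZT16 gave 826 higher and 482 lower, 744 and 243 of them among the genes called at ZT16.

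Beyond the loop, clock-linked change was measured by what the reading predicts. Of the genes tested at ZT16, 5247 had a daily rhythm in the 20 young libraries of the other time points, and each one's young curve gave a predicted difference between the mean young and mean nephritic readings. Without clock genes and genes that follow other tissue, 5000 rhythmic genes remained. The 78 genes with a predicted log2 change of -0.5 or less had a measured median of -0.53, with 14 lower (17.9%) and 3 higher. The 328 genes predicted between -0.5 and -0.25 had a median of -0.33, with 76 lower (23.2%) and 27 higher. At the other end, the 158 genes predicted between 0.25 and 0.5 had a median of 0.24, with 35 higher (22.2%) and 2 lower, and the 19 genes predicted at 0.5 or more had a median of 0.66, with 9 higher (47.4%) and 0 lower. The 4417 genes predicted within 0.25 had a median of -0.033, with 462 higher and 541 lower. The 9932 genes not called rhythmic had 1595 higher (16.1%) and 879 lower (8.85%). They include genes too low in young kidney for the rhythm test, such as Pax5 and Fcrl5. Such genes passed the filter at ZT16 only through their nephritic counts, which raises the share called higher. Across the 5000 genes, which are not independent replicates, predicted and measured changes correlated at 0.288 (Pearson) with a slope of 0.943. Against young ZT20 the same correlation was 0.078 with a slope of 0.258. The prediction was that from the young ZT16 readings and was not remade for young ZT20, whose libraries were among those that gave the curves. The 2 correlations are therefore not like measures.

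Of the 583 genes predicted to change by at least 0.25, 166 were called, 134 in the predicted direction and 32 against it. These stand beside 2134 and 1525 genes called higher and lower outside other-tissue genes. With other-tissue genes kept in, 5223 genes gave a correlation of 0.529 and a slope of 3.53, and 223 of the 291 genes that follow other tissue passed the young rhythm test and 91 of them were among the 169 genes predicted at -0.5 or less. By peak time, genes peaking near ZT12 and ZT16 in young kidney were lower most often (26.1% of 521 and 20.6% of 1226), and genes peaking near ZT4 were higher most often (18.3% of 1241).

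Genes with a large predicted change moved in several ways. Fabp7, a fatty acid binding protein, was predicted to rise by 0.92 and rose by 1.02 (SE 0.16, adjusted p = 0.00463), from 3.45 to 5.3 CPM in the young to 8.74 to 9.58 CPM in the nephritic libraries, with no overlap. Prkag3, a regulatory subunit of AMP-activated kinase, was predicted to fall by 0.80 and fell by 1.08 (SE 0.19, adjusted p = 0.00693). Nptx1 fell by 1.83 (SE 0.39, adjusted p = 0.0156, and 0.0535 without nephritic library 3) with a prediction of -0.86, and BC018473 fell by 0.99 (SE 0.22, adjusted p = 0.0171) with a prediction of -1.27. Zbtb16 and Cidec, with predictions of -1.02 and -0.81, had log2 changes of 0.30 (adjusted p = 0.369) and 0.09 (adjusted p = 0.837), and that of Cidec ran from -0.07 to 0.36 on leaving out 1 library at a time. Zbtb16 is a glucocorticoid-induced factor and Cidec a lipid droplet protein of adipocytes. Plk5 (adjusted p = 0.0545) and Mrap (adjusted p = 0.0914), the latter an adrenal and adipocyte partner of the corticotropin receptor, did not pass. Hand2 was called lower, a call kept in 1 of 7 fits that left out a library (adjusted p = 0.0919 without nephritic library 3), and Rpph1 was called higher. Rpph1 is an RNA without a poly(A) tail, so its level in these libraries is uncertain, and Hand2 was 2.39 to 3.3 CPM in young libraries 1 and 4, those rich in adrenal RNA, and 0.0397 CPM in young library 2.

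A separate question was whether the difference at ZT16 departed from that at the other 5 time points. Over 17339 genes in the 46 libraries, the ZT16 difference lay above the mean of the others for 303 genes (1.75%) and below it for 313 (1.81%), and 3826 had an unadjusted p under 0.05. Of the 616 genes, 449 were also called between the groups at ZT16. This count leaned on few libraries, with 61 genes left without nephritic library 1, 100 without young library 3, 192 without nephritic library 3, 219 without young library 1, 231 without nephritic library 2 and 304 without young library 4. With the 57 libraries of both sequencing sets, 10 genes passed. The clock loop held several of the called genes. Per3 at ZT16 differed from its change at the other times by -1.85 (SE 0.31, adjusted p = 0.000981), Per2 by -1.48 (SE 0.27, adjusted p = 0.00228), Nr1d2 by -1.12 (SE 0.23, adjusted p = 0.00678) and Cry1 by -0.88 (SE 0.14, adjusted p = 0.000754). Each of these 4 calls was kept in 7 of 7 fits that left out a library, while in the fit of 57 libraries Per3 passed (adjusted p = 0.0117) and Per2, Nr1d2 and Cry1 did not (adjusted p = 0.102, 0.0997 and 0.329). Nr1d1 lay 1.53 above (SE 0.39, adjusted p = 0.0306), lost without nephritic library 1 (adjusted p = 0.435), and Avpr1a, the V1a vasopressin receptor, lay 0.69 above (SE 0.16, adjusted p = 0.0235), a call kept in 3 of 7 fits.

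Outside the loop, the genes most particular to ZT16 were Col13a1, Mir568, Ankrd29, Tbxas1, Nme4, Sept1, Acvr2b and Dennd1c. In the fit of 57 libraries Col13a1, Mir568, Ankrd29 and Tbxas1 passed (adjusted p = 0.0205, 0.0344, 0.0282 and 0.046) and Acvr2b, Nme4, Sept1 and Dennd1c did not (adjusted p = 0.0979, 0.105, 0.396 and 0.141). Col13a1, a transmembrane collagen, measured 3.82, 3.25, 4.28 and 2.99 CPM in the young and 1.04, 1.04 and 0.939 CPM in the nephritic libraries. The groups were well apart, with a fall of 1.83 (SE 0.19, adjusted p = 0.000936) against a difference of 0.12 at the other time points. Acvr2b, an activin receptor, measured 47.3 to 59.1 CPM in the young and 18.8 to 23 CPM in the nephritic libraries and fell by 1.33 (SE 0.10, adjusted p = 0.000333). Ankrd29 fell by 0.89 and Mir568, a microRNA host locus whose reads may come from an overlapping transcript, by 1.16. Sept1 (a septin of lymphocytes), Dennd1c and Nme4 rose by 1.66, 1.00 and 0.55, and Tbxas1, thromboxane synthase, did not pass at ZT16 (log2 change 0.57, adjusted p = 0.0826). Nme4's call at ZT16 was kept in 3 of 7 fits (adjusted p = 0.0722 without young library 4).

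Immune genes rose together. B and plasma cell genes were higher for 19 of 21 tested, with a median log2 change of 4.56 beside -0.0076 for all genes. Over all tested genes 14% were higher, the share to set beside each immune list below. Jchain, which joins secreted antibody units, measured 4.59, 3.81, 4.5 and 3.75 CPM in the young and 361, 414 and 399 CPM in the nephritic libraries. All 3 nephritic libraries were near the same level, and Jchain rose by 6.55 (SE 0.11, adjusted p = 4.57e-07). Cd79a, a subunit of the B cell receptor, measured 0.266 to 0.587 CPM in the young and 44, 22.8 and 35.4 CPM in the nephritic libraries and rose by 6.36 (SE 0.34, adjusted p = 0.000218). Ms4a1 (CD20), Pou2af1 and Tnfrsf13c (the BAFF receptor), all B cell genes, rose by 7.42, 7.23 and 7.16. Pax5, the factor that fixes B cell identity, had 0 counts in the young and 125 in the nephritic libraries and was at least 45.6-fold higher against the floor of 3 counts over the group. Fcrl5, an Fc receptor-like protein of B cells, had 1 count in the young and 1035 in the nephritic libraries, a ratio of 1130 with an exact 95% interval from 203 to 44700 that covers counting error only. Sdc1 and Xbp1, which tubule cells also express, had log2 changes of -0.08 and 0.21 and did not pass.

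Genes of lymphoid tissue moved with the B cell genes. All 6 tested of the 8 genes of the lymph node list were higher (median 4.49), though 2 of them are also in the B cell list and 2 in the chemokine list. The list summed to 2.92 to 4.74 CPM in the young and 43.4 to 123 CPM in the nephritic libraries. Glycam1, an adhesion mucin of lymph node venules, measured 0 to 0.11 CPM in the young and 25.5, 9.95 and 30.2 CPM in the nephritic libraries and rose by 8.34 (SE 0.60, adjusted p = 0.000311). Cxcl13, the chemokine of B cell follicles, measured 0.232 to 0.698 CPM in the young and 28.8, 11 and 56.9 CPM in the nephritic libraries and rose by 6.16 (SE 0.64, adjusted p = 0.000901). Nephritic library 2 was lowest for both. Whether lymphoid tissue within or beside the kidney gave this RNA was not tested.

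T cell genes were higher for 26 of 26 tested, of 28 listed (median 3.48). Some of these, such as Cd5 with 30 young counts and Cd2 with 50, passed the filter only through their nephritic counts. Cd5, a T cell surface glycoprotein, measured 0.22, 0.278, 0.293 and 0.299 CPM in the young and 3.57, 3.28 and 5.94 CPM in the nephritic libraries and rose by 3.95 (SE 0.29, adjusted p = 0.000311). Cd2 rose by 4.30 and Lck, the kinase of the T cell receptor, by 3.47, and Lck at ZT16 exceeded its difference at the other times by 1.43 (SE 0.38, adjusted p = 0.034). Of the 26 T cell genes, 5 were particular to ZT16, all above, where 1.75% of genes were. Whether these 5 calls, that of Lck among them, held on leaving out a library was not measured. Over all genes the count of such calls fell to 61 without nephritic library 1 and to 10 with 57 libraries. The list's median difference at the other 5 time points was 2.21, and that of B and plasma cell genes was 2.79 with 2 genes particular to ZT16. Without nephritic library 3, 23 of the T cell genes stayed above the count filter and 22 of those passed.

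Myeloid genes were higher for 25 of 28 tested, of 32 listed (median 2.75). Laptm5, a lysosomal protein of blood cells, measured 12.3, 10, 11.8 and 10.4 CPM in the young and 70.3, 67.9 and 96.4 CPM in the nephritic libraries and rose by 2.81 (SE 0.14, adjusted p = 0.000218). Adgre1 (F4/80), a macrophage marker, rose by 2.70 and Tyrobp (DAP12), a myeloid signalling adaptor, by 2.99. Among receptors for immune complexes, 4 of 8 were higher, namely Fcgr1, Fcgr4, Fcer1g and Fcgr3, and Fcgr4 rose from 0.732 to 1.25 CPM to 41.5, 17.3 and 62.4 CPM (log2 change 5.42, SE 0.46, adjusted p = 0.000425). Clec4e, a receptor for damaged cells, and Fpr2, a formyl peptide receptor of phagocytes, rose by 7.37 and 6.77, and Clec4e had 3 counts in the young and 516 in the nephritic libraries, a ratio of 188 with an exact 95% interval from 64 to 915. Il9r rose by 6.70 on 2 young and 231 nephritic counts (ratio 126, interval 34.6 to 1050). Csf1r, Cd163 and Lyz1 did not pass.

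Of 23 complement genes tested, 8 were higher and 1 was lower, where 14% of all genes were higher and 11.1% lower. C1qb, part of the recognition unit of the classical pathway and made by macrophages, measured 19.1, 13.6, 15.8 and 13.5 CPM in the young and 136, 125 and 173 CPM in the nephritic libraries and rose by 3.22 (SE 0.16, adjusted p = 0.000218). C1qa and C1qc rose by 2.98 and 3.27, and the receptor genes C3ar1, C5ar1, Itgam and Itgb2 and the factor Cfp were also called. Mbl2, a lectin secreted by liver and the gene called lower, followed the liver genes. The list had 0 lower on leaving out any library but young library 2, without which it had 2. The gene for the central component, C3, had a log2 change of -0.92 and did not pass.

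MHC class II genes, which present antigen to helper T cells, were higher for 12 of 12 (median 2.35). H2-Eb1 measured 77, 60.5, 58 and 56.1 CPM in the young and 308, 337 and 334 CPM in the nephritic libraries and rose by 2.38 (SE 0.12, adjusted p = 0.000218). H2-Aa and H2-Ab1 rose by 2.29 and 2.43. MHC class I and immunoproteasome genes were higher for 14 of 15 (median 1.41), with Psmb8, an immunoproteasome subunit, up by 2.26 from 14.2 to 22 CPM to 77.7 to 83.2 CPM, Psmb10 up by 1.47, and H2-Q4 up by 1.89, the latter uncertain because class I genes share reads. Interferon-stimulated genes were higher for 32 of 37 (median 1.52). Oasl2 rose by 1.92 and Oas1a, which has near-identical neighbours and is uncertain, by 2.67, both of them antiviral RNA-sensing proteins, and Ifi35 rose by 0.95 (SE 0.09, adjusted p = 0.00065). Isg15, a ubiquitin-like protein conjugated under interferon and chosen after its values were seen, measured 3.89, 1.98, 2.3 and 2.52 CPM in the young and 15.5, 11.6 and 10.3 CPM in the nephritic libraries and rose by 2.22 (SE 0.26, adjusted p = 0.00131). Its promoter is printed because it shows the interferon element several times over. The window is chr4:156200819-156201068 (RefSeq, GRCm38.p6, minus strand, 250 bases before the start), and capitals mark 3 overlapping copies of the interferon-stimulated response element core.
Isg15: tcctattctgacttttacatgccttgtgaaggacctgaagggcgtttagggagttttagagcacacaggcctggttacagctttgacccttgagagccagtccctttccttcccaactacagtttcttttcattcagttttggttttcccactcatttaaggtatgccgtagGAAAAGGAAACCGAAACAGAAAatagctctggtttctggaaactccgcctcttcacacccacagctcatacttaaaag
The core was found on either strand in 15 of the 26 interferon-stimulated genes with a window and in 2.97% of all windows. Here too a gene was counted if any of its windows held the core, so the gene count and the window share are not like measures.

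The chemokines and cytokines that the study followed were higher too. Of 31 chemokine and receptor genes tested, 25 were higher (median 2.37). Ccl5, a chemokine for T cells and monocytes, measured 1.32, 0.476, 0.732 and 1.06 CPM in the young and 11, 20.3 and 22.3 CPM in the nephritic libraries and rose by 4.30 (SE 0.38, adjusted p = 0.000463). Cxcl10, an interferon-induced chemokine, rose by 2.22. Tnf rose by 4.34 (SE 0.41, adjusted p = 0.000601) from 0.0397 to 0.22 CPM to 2.26 to 3.85 CPM, Il1b by 3.10 (SE 0.42, adjusted p = 0.00255), Ccl2 by 3.17 (SE 0.59, adjusted p = 0.00962) and Cd14 by 2.07 (SE 0.50, adjusted p = 0.0231). Cd14 was 119 CPM in nephritic library 2 against 25.8 and 36.3 CPM in the others, and its call was kept in 4 of 7 fits that left out a library, with an adjusted p of 0.0602 without young library 4. Of the study's 9 inflammatory and injury genes, which it followed in these mice and which are thus no independent evidence, 8 were higher, 4 with young libraries 2 and 3 alone and 5 with young libraries 2 and 4 alone.

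Proliferation genes were higher for 25 of 28 (median 1.96), where 14% of all genes were higher. Mki67, the Ki-67 antigen of dividing cells, measured 4.08, 4.32, 2.27 and 5.48 CPM in the young and 21.8, 44.7 and 33.7 CPM in the nephritic libraries and rose by 3.05 (SE 0.33, adjusted p = 0.00106). Top2a and Bub1b, which act in mitosis, rose by 2.77 and 2.65. Nephritic library 2 was the highest of the 3 nephritic libraries for 27 of the 28 genes, and for 5686 of all 15248 tested genes. With young libraries 2 and 3 alone, or 2 and 4 alone, 6 of the 28 passed.

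**Figure D4:**
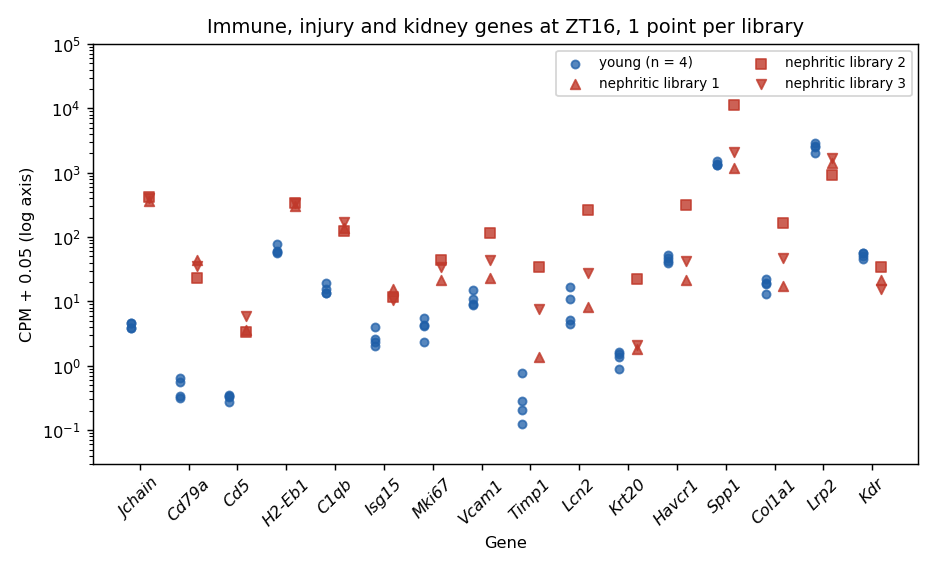
CPM + 0.05 (log axis) of 16 immune, injury and kidney genes in each library, with circles for the 4 young libraries and a separate symbol for each nephritic library. Jchain, Cd79a and H2-Eb1 are high in all 3 nephritic libraries, while Lcn2, Havcr1, Krt20, Spp1 and Col1a1 are highest in nephritic library 2 and within or near the young range in nephritic library 1.

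Injury genes varied widely among the 3 nephritic kidneys. Of 27 tubular injury genes tested, 11 were higher (median 1.34), where 14% of all genes were higher. Among the 3 nephritic libraries, library 2 was highest for 24 of the 27 and library 1 lowest for 19. Over all 15248 tested genes these counts were 5686 and 5241. The median deviation of the list from the young mean was 0.38, 1.85 and 0.66 on the log2 scale in nephritic libraries 1, 2 and 3, while that of T cell genes was 3.33, 2.71 and 3.65 and that of MHC class II genes 2.31, 2.37 and 2.25. Lcn2 (NGAL), a secreted marker of tubular injury, measured 11, 5.04, 17 and 4.42 CPM in the young and 8.15, 265 and 27.5 CPM in the nephritic libraries. Nephritic library 1 lay inside the young range, and Lcn2 did not pass (log2 change 3.42, SE 1.11, adjusted p = 0.0588). Havcr1 (KIM-1), a phagocytic receptor of injured proximal tubule chosen after its values were seen, was 40.1 to 53 CPM in the young and 21.7, 313 and 42.5 CPM in the nephritic libraries (adjusted p = 0.207), and its log2 change of 1.47 became -0.50 without nephritic library 2.

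Other injury genes showed the same library. Spp1 (osteopontin) was 1320 to 1500 CPM in the young and 1200, 11400 and 2130 CPM in the nephritic libraries (adjusted p = 0.0859), and Krt20, a keratin, was 0.83 to 1.58 CPM and 1.8, 22.1 and 2.03 CPM (adjusted p = 0.0594). Both were chosen after their values were seen. Timp1, an inhibitor of matrix proteases, rose by 5.56 (SE 1.17, adjusted p = 0.0148), with 0.0732 to 0.734 CPM in the young and 1.34, 34.2 and 7.46 CPM in the nephritic libraries, and Vcam1, an adhesion molecule for leukocytes, rose by 2.47 (SE 0.50, adjusted p = 0.0135), with 8.69 to 15.1 CPM and 23.4, 114 and 43.4 CPM. Cd44, a hyaluronan receptor, Cdkn1a (p21) and S100a6, a calcium-binding protein, rose by 2.50, 1.34 and 1.26, with all 3 nephritic libraries above all 4 young ones. Without nephritic library 1, 18 of the 27 injury genes passed, and without any 1 of the young libraries, 6 or 7 did. With young libraries 2 and 3 alone 1 passed, and with young libraries 2 and 4 alone 4 did.

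Collagen and matrix genes followed the injury genes. Of 32, 8 were higher (median 0.83), where 14% of all genes were higher. Among the 3 nephritic libraries, library 2 was highest for 28 and library 1 lowest for 31. Over all 15248 tested genes, library 2 was highest for 5686 and library 1 lowest for 5241. Col1a1, chosen after its values were seen, was 13 to 22.1 CPM in the young and 17.5, 166 and 47.4 CPM in the nephritic libraries (log2 change 2.07, SE 0.65, adjusted p = 0.0539). Tgfb1, the growth factor that drives matrix deposition, rose by 1.16 (SE 0.20, adjusted p = 0.00699) from 13.4 to 20.5 CPM to 28.1, 46.1 and 37.7 CPM, and Lox, which cross-links collagen, rose by 1.45 (SE 0.28, adjusted p = 0.0116). Mmp7, a matrix protease of injured epithelium, had 2 counts in the young and 101 in the nephritic libraries, a ratio of 55.2 with an exact 95% interval from 14.9 to 462. Leaving out a nephritic library left 31 genes of the list above the count filter. Of these, 21 passed without nephritic library 1 and 5 without nephritic library 2 or 3. Without young library 3 or young library 4, 4 of the 32 passed.

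Of 29 proximal tubule genes, 0 were higher and 11 were lower (median -0.57), where 14% of all genes were higher and 11.1% lower. Slc27a2, a fatty acid transporter of the tubule, measured 2840, 2790, 2980 and 2970 CPM in the young and 1930, 1070 and 1430 CPM in the nephritic libraries and fell by 0.97 (SE 0.19, adjusted p = 0.0116). Nephritic library 2 was lowest, as it was for Lrp2 (megalin), which measured 2010 to 2870 CPM in the young and 1400, 913 and 1670 CPM in the nephritic libraries and fell by 0.91 (SE 0.22, adjusted p = 0.0237), a call kept in 4 of 7 fits that left out a library (adjusted p = 0.064 without young library 3). Slc3a1, a subunit of the cystine transporter, and Slc22a2, an organic cation transporter, fell by 0.96 and 0.69. The list summed to 46000 to 47900 CPM in the young and 23100 to 34400 CPM in the nephritic libraries. Without young library 3, 3 of the 29 passed, and without young library 4, 4 did.

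Distal nephron genes had 3 higher and 2 lower of 28 (median 0.07), where 14% of all genes were higher and 11.1% lower. Aqp2, the vasopressin-regulated water channel of the collecting duct, measured 669, 568, 676 and 619 CPM in the young and 1130, 1090 and 1180 CPM in the nephritic libraries. It rose by 0.84 (SE 0.09, adjusted p = 0.000818), and its difference at ZT16 exceeded that at the other times by 0.86 (SE 0.21, adjusted p = 0.024). Whether this excess over the other times held on leaving out a library was not measured. Aqp4, a basolateral water channel of the same duct, measured 138 to 167 CPM in the young and 80.1, 39.6 and 59.6 CPM in the nephritic libraries and fell by 1.34 (SE 0.22, adjusted p = 0.00593). Atp6v1g3, a proton pump subunit of intercalated cells, rose by 0.36, a call kept in 3 of 7 fits that left out a library (adjusted p = 0.096 without nephritic library 3). Leaving out 1 library at a time gave 1 to 4 higher and 1 to 3 lower, with 1 of each without young library 3, young library 4 or nephritic library 3. Calb1 fell by 1.05 and Scnn1b rose by 0.55, while Umod, Slc12a1 and Slc12a3, which mark the loop and distal tubule, did not pass.

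Podocyte genes were higher for 3 of 12 (median 0.20), where 14% of all genes were higher. Ptpro, a podocyte phosphatase, measured 24, 21.7, 19.3 and 18.4 CPM in the young and 30.1, 32.2 and 32.4 CPM in the nephritic libraries and rose by 0.60 (SE 0.10, adjusted p = 0.00659). Synpo rose by 0.50, a call kept in 2 of 7 fits that left out a library (adjusted p = 0.103 without nephritic library 3). Nphs1 (nephrin) had a log2 change of 0.07 and did not pass. Of 16 endothelial genes, 1 was higher and 2 were lower (median -0.20), where 14% of all genes were higher and 11.1% lower. The lower count was 5 without young library 2 and 0 with young libraries 2 and 3 alone or 2 and 4 alone, and the median was 0.12 with young libraries 2 and 4 alone. Kdr (VEGF receptor 2) measured 56.7, 44.9, 56.9 and 50.4 CPM in the young and 21.5, 33.8 and 15.5 CPM in the nephritic libraries and fell by 1.15 (SE 0.25, adjusted p = 0.0163), and Flt1 (VEGF receptor 1) fell by 1.03 (SE 0.19, adjusted p = 0.00861). Nephritic library 2, highest for injury genes, was the highest of the nephritic libraries for Kdr and Flt1. Cldn5, an endothelial claudin, rose by 0.37, a call kept in 2 of 7 fits that left out a library (adjusted p = 0.0856 without nephritic library 3).

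Of 32 respiratory chain genes, 18 were lower and 1 was higher (median -0.38), where 11.1% of all genes were lower. Cycs (cytochrome c) measured 283, 283, 293 and 258 CPM in the young and 187, 189 and 224 CPM in the nephritic libraries and fell by 0.48 (SE 0.09, adjusted p = 0.00799). Cox7a2 and Cox5a, subunits of cytochrome oxidase, fell by 0.40 and 0.47. The count depended on young libraries, with 8 lower without young library 2, 5 without young library 3, 6 without young library 4, 2 with young libraries 2 and 3 alone and 0 with young libraries 2 and 4 alone, and was 10 without nephritic library 3. Fatty acid oxidation genes were lower for 7 and higher for 2 of 37 (median -0.31), with Acadm, the medium-chain acyl-CoA dehydrogenase, down by 0.90 (SE 0.17, adjusted p = 0.0108) from 1330 to 1490 CPM to 816, 526 and 879 CPM. Slc25a20, the mitochondrial carnitine carrier, fell by 0.53 and Cyp4a12a, a fatty acid hydroxylase with a near-identical neighbour and so uncertain, rose by 2.00. Slc25a20 had a log2 change of 0.08 against young ZT20 (adjusted p = 0.608). Without nephritic library 1, 15 of the 37 were lower, and without young library 3 or young library 4, 3 were, as were 4 without nephritic library 3.

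Sterol and lipid synthesis genes were lower for 7 and higher for 0 of 27 (median -0.60), where 11.1% of all genes were lower and 14% higher. Hmgcs1, an early enzyme of cholesterol synthesis, measured 347, 403, 437 and 387 CPM in the young and 239, 179 and 256 CPM in the nephritic libraries and fell by 0.81 (SE 0.14, adjusted p = 0.0067), and Cyp51 of the same pathway fell by 1.08. The count was 14 without young library 2, 3 without young library 3, 4 without nephritic library 2 and 13 without nephritic library 3. Gluconeogenesis genes were lower for 4 and higher for 1 of 12 (median -0.54), among them Fbp1, fructose bisphosphatase, down by 0.73 (SE 0.15, adjusted p = 0.0148), Gpt2, an alanine transaminase, down by 0.82, and Slc2a2 (GLUT2), down by 0.39 with its call kept in 2 of 7 fits that left out a library (adjusted p = 0.0899 without nephritic library 3). The list gave 2 lower without young library 2, 3 or 4 or nephritic library 2 or 3, and 7 without nephritic library 1. Glycolysis genes had 5 higher and 2 lower of 20 (median 0.11), where 14% of all genes were higher and 11.1% lower. Without young library 2 or young library 3, 2 of them were higher. Slc2a6 and Hk3, a glucose transporter and a hexokinase of myeloid cells, rose by 2.66 and 2.27, and Pgam1, phosphoglycerate mutase, fell by 0.56. Among 30 xenobiotic genes 3 were higher and 3 lower (14% and 11.1% over all genes), with 0 higher without young library 3 or young library 4 and 6 lower without young library 2. The lower ones were Por, Cyp51 and Cyp2j5, an epoxygenase of the proximal tubule.

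Signals that set or follow the clock were also measured. Glucocorticoid-responsive genes were higher for 2 and lower for 2 of 16 (median -0.016), where 14% of all genes were higher and 11.1% lower. The 2 lower calls were lost on leaving out any library but nephritic library 1. Mt2 and Cdkn1a rose by 1.80 and 1.34, and Mt2 was 179 CPM in nephritic library 2 against 61.3 and 49.3 CPM in the others and 24.9 to 29.3 CPM in the young, with its call lost without young library 3 (adjusted p = 0.0569). Sgk1, a kinase that raises sodium transport, fell by 0.77 (SE 0.22, adjusted p = 0.0388), a call kept in 1 of 7 fits that left out a library, with an adjusted p of 0.111 without nephritic library 2. Sgk1 had a log2 change of -0.21 against young ZT20 (adjusted p = 0.697). Of 14 temperature-responsive genes, Hspd1, a mitochondrial chaperone, fell by 0.64 (SE 0.13, adjusted p = 0.0142) and the others did not pass. Without nephritic library 3, 4 of the 14 were lower and 1 was higher, and with young libraries 2 and 3 alone or 2 and 4 alone 0 passed. Immediate early genes were higher for 5 of 17 (median 0.31), among them Egr3, Egr2 and Jund, which rose by 2.19, 1.75 and 0.47. The list had 2 higher without young library 2, 3 or 4 or nephritic library 3, and 1 without nephritic library 2. Egr2 was kept in 4 and Jund in 3 of 7 fits that left out a library, both lost without nephritic library 2 (adjusted p = 0.0922 and 0.0687).

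Acute phase genes could hardly be read, since 10 of the 15 tested followed the liver genes. The list had 2 higher and 3 lower, where 14% of all genes were higher and 11.1% lower. Its median of -1.51 was 1.37 without those 10 genes, and its lower count ran from 0 without young library 3 to 6 without young library 2. Socs3, which restrains cytokine signalling, measured 6.24, 2.78, 6.62 and 4.88 CPM in the young and 20.6, 58.5 and 39.2 CPM in the nephritic libraries and rose by 2.94 (SE 0.40, adjusted p = 0.00268). Hpx (hemopexin) and Orm1, both secreted by liver, were called lower with 294 and 310 CPM of Hpx in young libraries 1 and 3 and 2.22 CPM in young library 2, and their calls were kept in 3 and 2 of 7 fits that left out a library. Of 12 adipocyte genes, 0 were called, and their sums of 616 to 1320 CPM in the young and 641 to 1120 CPM in the nephritic libraries overlapped. Red cell genes (74.3 to 101 and 51.1 to 126 CPM), skeletal muscle genes (9.36 to 14.4 and 5.78 to 9 CPM) and ovary and oviduct genes (5.27 to 10 and 7.64 to 14 CPM) had 0, 1 and 0 genes called, the called one being Tnni2, a troponin of fast muscle, which rose by 1.81 (SE 0.34, adjusted p = 0.00939).

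After other-tissue genes were set aside, the largest decreases included Akr1c14. Akr1c14, a hydroxysteroid dehydrogenase, measured 164, 115, 164 and 135 CPM in the young and 29.6, 22.2 and 44.2 CPM in the nephritic libraries. The groups did not overlap, and Akr1c14 fell by 2.18 (SE 0.25, adjusted p = 0.00134), by 1.98 more than at the other time points (SE 0.50, adjusted p = 0.0306). Whether this departure from the other time points held on leaving out a library was not measured. Gcm1, a transcription factor, fell by 2.38 (SE 0.31, adjusted p = 0.00199) and Ccdc170 by 2.16 (SE 0.27, adjusted p = 0.00171). Car5a, a mitochondrial carbonic anhydrase, measured 9.55, 3.77, 7.61 and 5.08 CPM in the young and 1.53, 0.834 and 1.33 CPM in the nephritic libraries and fell by 2.40 (SE 0.38, adjusted p = 0.00525). Slc22a30 and Slc22a26, neighbouring organic anion transporters of high likeness and so uncertain, fell by 2.24 and 2.11, the latter not passing without nephritic library 2 (adjusted p = 0.0543). Car5a, Slc22a30 and Slc22a26 were highest in young libraries 1 and 3, the libraries rich in liver RNA. So was Akr1c14, at 164 CPM in both, against 115 and 135 CPM in young libraries 2 and 4. Against young ZT20, Akr1c14, Gcm1 and Ccdc170 were lower by 2.07, 2.67 and 2.74 (adjusted p = 0.000987, 0.000791 and 0.00206).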

How the data were processed

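The authors sequenced polyadenylated RNA of whole perfused kidneys and deposited 1 table of raw read counts per gene symbol. The submitters' processing notes name HISAT and mm10, while the study's methods describe a Burrows-Wheeler alignment with unique reads counted; strand use in the counting is not given in the sources used here. The deposited counts were used unchanged, apart from 15 of 24538 symbols with empty cells, which were left out. Groups came from the diagnosis and time labels. Replicate numbers are accession order and pair no mice, so groups were compared as unpaired. The edgeR p-values set the difference between groups against the spread between these libraries.

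Genes with at least 100 counts over the fit were tested with edgeR 4.0.16 (TMM scaling, quasi-likelihood test, Benjamini-Hochberg adjustment, call at 0.05) in R 4.3.3. The difference at ZT16 was set against the mean of the other 5 time points in 46 libraries of the same set. CPM are counts scaled to a common total by TMM-adjusted library size. Rhythms were 24 h cosine fits in 20 young libraries without ZT16. limma 3.58.1 (voom) and DESeq2 1.42.0 were alternatives. Scripts were tested on simulated data.

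Named genes were the clock genes and the study's 9 inflammatory genes, the 10 largest called changes in each direction, up to 3 called members with the smallest p in each list, the 10 smallest p-values particular to ZT16 and the 10 largest predicted changes, with Gm-named gene models, Riken clones and antigen receptor segments left out. The 10 largest predicted changes were all adrenal genes, so the next 10 outside other-tissue genes are described, likewise for the largest decreases; these, and other members of a list named outside the rule, were chosen after their values were seen. Members and lists were chosen with earlier results of these data known. The other-tissue rule, the liver, adrenal medulla and pancreas lists, the fits with 2 young libraries, with young ZT20 and with the libraries labelled nephritic ZT20 were added after the data were seen. RefSeq promoters are of GRCm38.p6. Counting intervals cover counting error only. A few genes that these rules would name are not reported here.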

Additional observations from a re-analysis of the deposited data

Results flagged for a closer look

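The difference between nephritic and young kidney at ZT16 departed from the mean of the other 5 time points, by the interaction test in edgeR, for these named genes. On the log2 scale the departure was -1.85 for Per3, -1.48 for Per2, -1.12 for Nr1d2, -0.875 for Cry1, 1.53 for Nr1d1 and 0.687 for Avpr1a among clock genes. It was -1.95 for Col13a1, -1.18 for Mir568, -0.987 for Acvr2b, -0.979 for Ankrd29, 1.23 for Sept1, 1.09 for Tbxas1, 0.899 for Nme4 and 0.753 for Dennd1c. The libraries labelled nephritic ZT16 and ZT20 read in the reverse order of their labels on the clock genes, and the part of this in these departures was not tested.

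Genes of liver departed the furthest, by -11.4 for Slco1b2, -10.7 for Ces1c, -10.6 for Cyp7a1, -10.5 for Cyp2c67, -10.4 for Cyp3a41a, -9.72 for Serpina3k and -9.31 for Cyp3a25. These genes follow the liver RNA that young libraries 1 and 3 held most of.

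In 5 genes 1 of the 4 young libraries lay far from the other 3. Bhlhe40 was lowest at 141 CPM and Cxcl10 highest at 5.84 CPM, both in young library 1. Clec4e was lowest at 0 CPM and Fcrl5 highest at 0.0397 CPM in young library 2, and Il9r was highest at 0.0732 CPM in young library 3, each of these on 3 or fewer counts over the young group. Chance gives about 1 such gap in 20 groups.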

How the results depend on the processing

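The counts of 2135 genes higher and 1692 lower became 2680 and 2382 with DESeq2. Upper quartile scaling gave 2525 and 1255, so that 66.8% of calls were higher rather than 55.8%, with the median of all genes at 0.041. They were 1030 and 505 with young libraries 2 and 3 alone, 1135 and 634 with young libraries 2 and 4 alone, and 826 and 482 with the libraries labelled nephritic ZT20. A 2-fold threshold left 1081 and 338. Without 1 library at a time they ran from 1280 to 2121 and from 645 to 1804. The 616 genes particular to ZT16 became 1266 with DESeq2, 306 with limma, 10 with 57 libraries, and 61 to 666 without 1 library at a time. The share of genes called ran from 11.7% to 24.8% in rhythmic genes (25.3% with all 7 libraries) and from 13.3% to 26.4% in the others (25%). The clock time difference of 3.28 h was 3.89 h with young curves from both sets and 4.09 h with genes scaled to young amplitude.

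List medians turned for the clock activators (0.154 with the libraries labelled nephritic ZT20), acute phase genes (0.557 with young libraries 2 and 4, 1.13 against young ZT20) and endothelial genes (0.124 with young libraries 2 and 4). With the libraries labelled nephritic ZT20, MHC class I genes called higher went from 14 to 5 and interferon-stimulated genes from 32 to 22. Against young ZT20, tubular injury genes called higher went from 11 to 17 and sterol and lipid synthesis genes called lower from 7 to 17. In both fits MHC class II genes stayed at 12 higher, and respiratory chain genes called lower went from 18 to 7. With the libraries labelled nephritic ZT20 the log2 change turned for Ankrd29 (0.0651), Cidec (-0.25), Cldn5 (-0.378), Clock (0.154), Jund (-0.228), Nme4 (-0.0115), Nr1d1 (-0.546), Prkag3 (0.39), Sgk1 (0.221) and Tbxas1 (-0.157). Against young ZT20 in a fit of their own, Arntl (-0.526), Npas2 (-0.0984), Per1 (0.517), Slc25a20 (0.0637) and Tspan4 (0.0472) turned, and Ppp1r3c did with young libraries 2 and 4 (0.208). Leaving out 1 library at a time moved Cidec from -0.0737 to 0.358, Havcr1 from -0.499 to 1.96, Nr1d1 from -0.0283 to 1.31 and Per1 from -0.816 to 0.0744. The causes were not tested. Over the 171 named genes, 993 of the leave-one-out results kept direction and call, 175 lost the call, 15 gained it and 7 turned. No paired analysis was possible because replicate numbers follow accession order and no label pairs a young with a nephritic mouse. With 3 and 4 libraries, an exact test of 1 value cannot pass 0.05.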
